A study of Mus musculus with 15 samples.

Results

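The genes Nppb, Myh7, Acta1, Myl1, Ankrd1, Csrp3, Rcan1 and Gdf15, which mark hypertrophy and mechanical stress in heart muscle, were followed in whole mouse hearts after aldosterone. Every probe set whose only annotated gene symbol was one of these names was taken. This gave 9 probe sets for 7 of the 8 genes, of 18194 genes with such probe sets and 45101 probe sets on the array, and all 9 lay above the signal filter used for testing. No probe set carried the symbol of Gdf15, a secreted stress cytokine, and it was not analysed here. Ankrd1 and Rcan1 had 2 probe sets each, and the one with the higher mean signal, called leading below, stands for the gene. A further 2 probe sets listed Myh7 together with Myh6 and were left out of the tests.

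The aldosterone arm held hearts collected 0.5, 1, 2, 3, 4, 5 and 12 h after aldosterone, the adrenal steroid that acts through the mineralocorticoid receptor, with 1 array per time. A control arm held 1 array at each of the same times, and a further control heart, at 0 h, had no injection according to its label, so that there were 15 arrays in all. The labels give no dose, strain, age or sex, do not state what the timed controls received, and do not say whether an array is 1 animal or a pool. The spread behind the p-values below is therefore one between arrays and may be technical in part, and the number of arrays limits the precision. In the tests between the arms it is the scatter of their difference across times. A change of that difference with time adds to it.

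When the heart wall is stretched or overloaded, cardiomyocytes secrete natriuretic peptides, add sarcomeres and switch on genes of the fetal heart. In the adult mouse ventricle the fast heavy chain alpha-myosin dominates, and a rise of beta-myosin (Myh7) and of skeletal alpha-actin (Acta1) is a classic sign of this fetal program. Proteins of the Z disc and of the titin spring, among them the products of Csrp3 and Ankrd1, are thought to sense the strain, and the phosphatase calcineurin carries part of the signal to the nucleus, with Rcan1 as its feedback inhibitor.

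Markers of heart muscle were high on all arrays. The 11 ventricular markers averaged 15.72 to 15.98 on aldosterone arrays and 15.66 to 15.93 on control arrays, on the scale log2(signal + 167.8) after quantile normalization, which is used for all levels below. The brightest of them were Myl3 and Myh6, and their mean is read here as a level of heart muscle and not of ventricular content alone. Atrial content was less even: the 14 atrial markers averaged 11.66 to 13.00 on aldosterone arrays, 11.39 to 13.16 on control arrays and 13.09 on the uninjected array. Of the 14, 12 lay above the filter. The summed signal of all 14 was 137162 to 595791 with aldosterone and 111501 to 563743 in control. The signal of Nppa, the atrial natriuretic peptide gene, spanned 29362 to 225640, that of Myl4, the atrial essential light chain, 8469 to 124408, and that of the dimmest marker, the connexin gene Gja5, 19 to 76. Both 1 h arrays stood apart in lung epithelial markers, with a mean level of 13.77 for aldosterone and 12.73 for control, against 8.56 to 9.46 on all other arrays. The 3′ to 5′ signal ratio of Gapdh, a measure of RNA quality, differed widely between arrays, with log2 values of -0.23 to 3.36 for aldosterone, -0.17 to 3.92 for control and 0.37 for the uninjected array. The arms differed most in this ratio at 1 h (3.31 with aldosterone, 0.78 in control) and 2 h (3.36 and 0.35). In whole hearts, fewer cells of a type and less RNA per cell cannot be told apart. There were 3 scan days. Hearts of 0.5 and 3 h were scanned on day 1, hearts of 1, 4 and 12 h on day 2, and hearts of 2 and 5 h and the uninjected one on day 3.

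All 7 measured genes were well expressed. The leading probe sets averaged, over 15 arrays, a signal of 132754 for Csrp3, 70370 for Ankrd1, 66385 for Acta1, 42025 for Nppb, 9789 for Rcan1, 6855 for Myl1 and 5114 for Myh7. These means lay between the 91.2 and 99.8 percentiles of all probe sets. Probe sets differ in how strongly they bind, so the order of these signals is not an order of transcript abundance. The uninjected array lay within the range of the other 14 arrays for all 9 probe sets, while 6546 of the 22256 tested probe sets had it outside that range.

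The promoters of 4 genes are shown because Nppb and Acta1 each varied with Ankrd1 across arrays, more than with each other, while Myl1 followed another course, as described below. Each is a window of 300 bases from RefSeq on the mouse build GRCm38.p6, with 250 bases before and 50 after the start of transcription used in that table, written in the direction of transcription. For Acta1 and Ankrd1 that start is the 5′ end of the gene span printed below. For Nppb and Myl1 it lies 114 and 2876 bases inside the span, so positions there count from that inner start. Capitals mark CATTCC, the MCAT element bound by TEAD factors, on either strand, and the CArG box bound by serum response factor (SRF). The windows are chr4:147985650-147985949 (plus strand) for Nppb, chr8:123894726-123895025 (minus strand) for Acta1, chr19:36119795-36120094 (minus strand) for Ankrd1 and chr1:66945007-66945306 (minus strand) for Myl1.
Nppb: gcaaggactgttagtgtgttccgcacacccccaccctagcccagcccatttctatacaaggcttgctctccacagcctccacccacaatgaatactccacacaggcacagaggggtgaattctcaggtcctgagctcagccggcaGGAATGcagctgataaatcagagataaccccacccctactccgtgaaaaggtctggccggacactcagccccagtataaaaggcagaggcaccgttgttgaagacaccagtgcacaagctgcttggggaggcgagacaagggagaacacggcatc
Acta1: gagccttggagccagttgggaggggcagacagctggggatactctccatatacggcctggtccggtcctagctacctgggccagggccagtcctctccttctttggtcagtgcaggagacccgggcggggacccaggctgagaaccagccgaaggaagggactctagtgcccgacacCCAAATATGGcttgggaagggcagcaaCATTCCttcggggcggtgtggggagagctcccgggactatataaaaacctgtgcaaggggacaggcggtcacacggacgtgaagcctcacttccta
Ankrd1: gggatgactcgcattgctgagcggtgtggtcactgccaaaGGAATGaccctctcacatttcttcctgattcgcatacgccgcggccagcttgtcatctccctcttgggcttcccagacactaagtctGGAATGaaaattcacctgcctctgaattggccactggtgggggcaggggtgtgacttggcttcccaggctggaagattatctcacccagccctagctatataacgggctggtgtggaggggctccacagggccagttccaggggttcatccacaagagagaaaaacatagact
Myl1: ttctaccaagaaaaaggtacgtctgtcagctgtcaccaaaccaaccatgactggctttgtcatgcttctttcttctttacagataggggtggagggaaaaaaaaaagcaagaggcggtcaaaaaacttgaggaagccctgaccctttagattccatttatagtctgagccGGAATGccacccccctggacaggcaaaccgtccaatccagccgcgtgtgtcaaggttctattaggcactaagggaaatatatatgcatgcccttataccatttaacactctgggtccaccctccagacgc
Ankrd1 held 2 MCAT matches, at -210 and -123 from the start, and Nppb, Acta1 and Myl1 held 1 each, at -105, -46 and -80. Among the windows not shown, those of Csrp3 and Rcan1 held 0 MCAT matches. Myh7 and Gdf15 each held 1 in a window and 0 in another. Of 32851 promoter windows in the table, 14.7% had an MCAT match. The CArG box of Acta1, at -73, was the only one among the 4, and 1.63% of all windows had one. GATAA, the core of the GATA element (25.4% of windows), had 2 matches in Nppb and 1 in Ankrd1, at -47. Nppb also had 1 match to AGAACA, a hexamer of the corticosteroid receptor element (19% of windows). Both were searched on either strand. A match is a description of these letters and not of binding.

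Nppb, on chromosome 4 (147985786 to 147987205), encodes B-type natriuretic peptide, the hormone that stretched heart muscle releases to promote salt and water excretion. It had 60155, 54137, 60221, 28004, 64976, 23356 and 38990 signal units at 0.5, 1, 2, 3, 4, 5 and 12 h after aldosterone. In the control arm the same times gave 55202, 56079, 36571, 27022, 26200, 24155 and 38626, and the uninjected heart had 36676. The normalized level of the control arm was lower at each time than at the one before up to 5 h, and the 12 h array was back between those of 1 and 2 h. The aldosterone arm ran between the same ends, but its 2 and 4 h arrays lay above the control arrays by 0.6 and 1.21. The differences were smaller at 0.5 and 3 h (0.06 and 0.15) and at 1, 5 and 12 h (-0.11, -0.17 and -0.05), where the aldosterone arm was lower. Its 2 h array also lay above that of 1 h, and its 4 h array above that of 3 h.

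From 0.5 to 5 h the slope of Nppb was -0.25 ± 0.13 per hour in the aldosterone arm and -0.32 ± 0.05 per hour in the control arm (log2, slope ± SE, 6 arrays each, no test). The 0.5 h array exceeded the 5 h array 2.99-fold with aldosterone and 2.56-fold in control. With treatment as a covariate, limma gave a trend of -0.29 ± 0.06 per hour (± SE, as for all limma estimates below) over the 12 arrays, with an adjusted p of 0.0573, so that Nppb did not pass the threshold of 0.05. It ranked 55 by p among 22256 probe sets, of which 34 passed (0.153%), and none of the 9 probe sets of these genes was among them, although 2 had an unadjusted p under 0.05. The call depended on the settings: Nppb passed with a stricter filter (adjusted p = 0.046), with array weights (adjusted p = 0.0382) and with the Gapdh ratio described above as a covariate (adjusted p = 0.0285), all with every array kept. In the same order, 52, 60 and 103 of all probe sets passed. Without the aldosterone 4 h array the trend was -0.34 ± 0.04 per hour with a limma adjusted p of 0.00606. Without both 1 h arrays it was -0.29 ± 0.06 per hour, with an adjusted p of 0.152. The level of Nppb, which atrial muscle also makes, had r = 0.12 with the mean atrial marker level over 15 arrays (permutation p = 0.679, rho = 0.02, permutation p = 0.944). Within a time, both arrays came from 1 scan day and were counted as separate, so these p-values may be too small. Within a scan day, the later time was lower on day 1 (3 h minus 0.5 h, -1.08 with aldosterone and -1.17 in control) and on day 3 (5 h minus 2 h, -1.39 and -0.62), while on day 2 the 4 h minus 1 h difference was 0.19 with aldosterone and -1.13 in control.

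**Figure D1:**
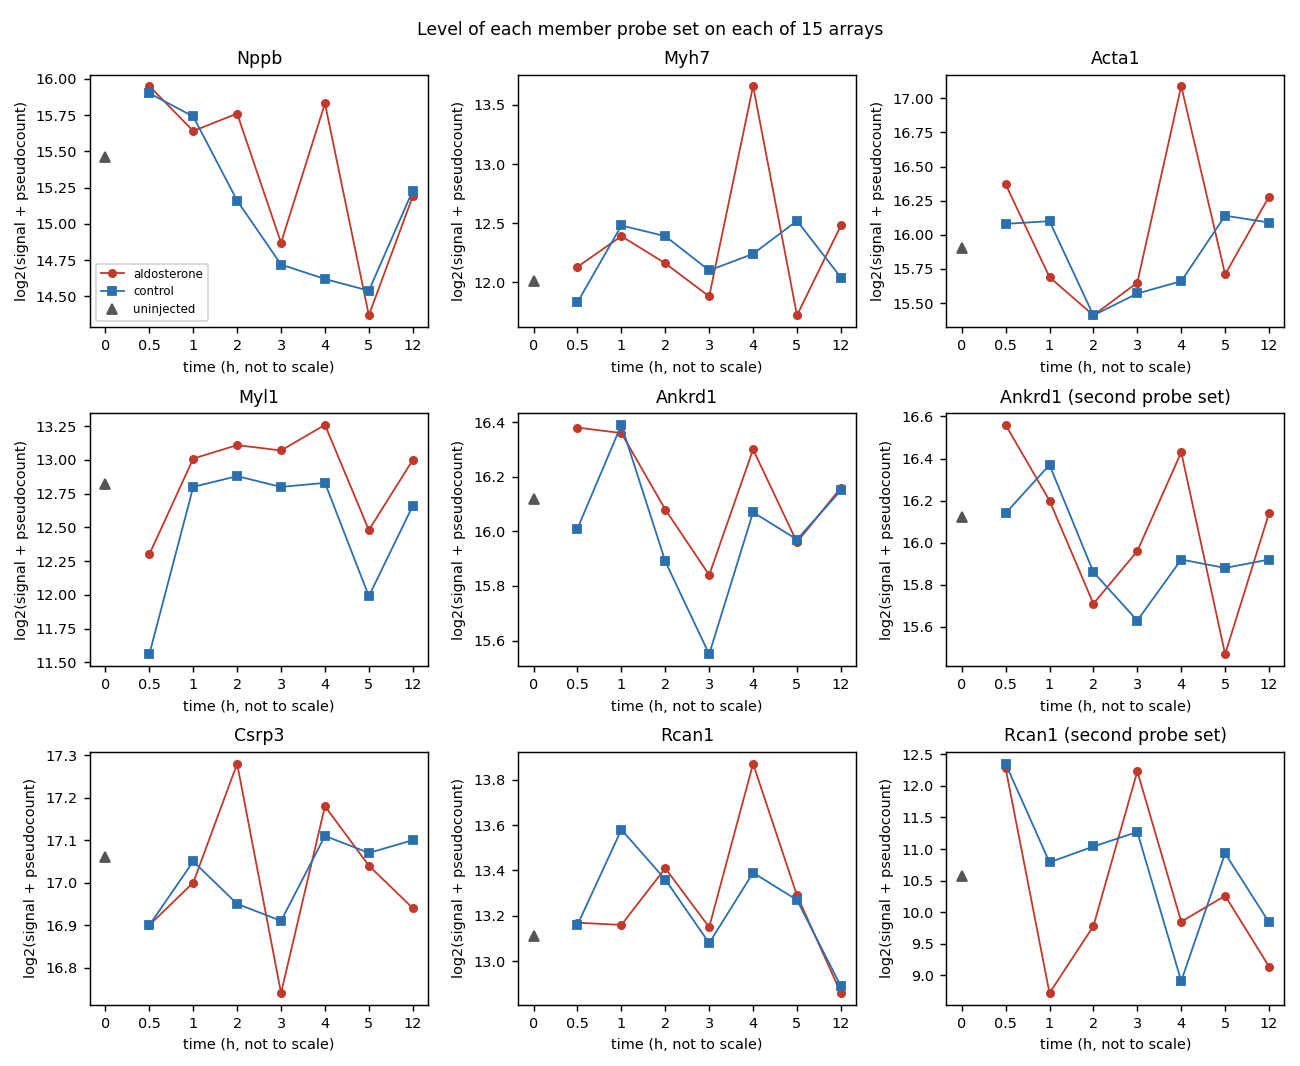
Level of each probe set, as log2(signal + pseudocount), by time after the start of the experiment in hours (spacing not to scale). Red circles are aldosterone arrays, blue squares control arrays and the grey triangle the uninjected array, each point 1 array. Nppb runs downward to 5 h in both arms apart from the aldosterone 2 h and 4 h arrays. Myl1 has the red points above the blue ones at all 7 times, and Myh7 and Acta1 peak on the aldosterone 4 h array.

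Myh7, on chromosome 14 (54970684 to 54994626), encodes the slow beta-myosin heavy chain. After aldosterone it had 4286, 5291, 4441, 3682, 13463, 3251 and 5574 signal units from 0.5 to 12 h, against 3379, 5629, 5230, 4252, 4761, 5744 and 4033 in control and 3690 without injection. A single array carried most of its range: at 4 h the aldosterone heart had 2.68 times the control level, and the next highest array lay 1.13 lower on the log2 scale. The other 6 aldosterone arrays lay between 11.72 and 12.48, inside or just below the control range of 11.83 to 12.52.

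Acta1, on chromosome 8 (123891758 to 123894775), encodes skeletal alpha-actin. It had 80100, 56097, 46645, 46172, 150124, 55412 and 85880 signal units after aldosterone, against 63205, 71948, 42696, 49118, 55817, 68330 and 74264 in control and 49967 without injection. Here too the aldosterone 4 h array was the highest of 15, at 2.69 times its control. On the other arrays the lowest levels lay at 2 and 3 h in both arms. The next highest were at 0.5 and 12 h in the aldosterone arm (16.37 and 16.28), while in the control arm 5, 1, 12 and 0.5 h were alike (16.14, 16.10, 16.09 and 16.08). The time effect did not pass the limma threshold (F 2.39, adjusted p = 0.339).

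Neither contractile gene passed the test between the arms over the 7 times. The limma estimate with time as a block was 0.12 ± 0.20 for Myh7 (95% interval -0.32 to 0.55, adjusted p = 0.979, higher with aldosterone at 3 of 7 times) and 0.16 ± 0.17 for Acta1 (-0.21 to 0.53, adjusted p = 0.975, 4 of 7). Without the 4 h pair the means were -0.10 and -0.05. For Nppb the estimate was 0.24 ± 0.14 (-0.06 to 0.54, adjusted p = 0.975, 4 of 7), with a mean of 0.08 when the 4 h hearts were left out. For each of these 3 genes the mean difference thus rested on the 4 h pair.

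The 2 probe sets shared by Myh7 and Myh6 could not be assigned to either gene. One was at 17.97 to 18.16 on all 15 arrays. The other had signals of 25815, 331, 179, 33809, 370, 404 and 109 after aldosterone, against 35397, 1075, 1724, 1462, 301, 570 and 388 in control and 7778 without injection. Its 3 highest arrays, both 0.5 h arrays and the aldosterone 3 h array, were the 3 with a Gapdh ratio below 0, at -0.23, -0.17 and -0.14. The part of RNA quality in this pattern was not tested.

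Myl1, on chromosome 1 (66924295 to 66947932), encodes an essential light chain of fast skeletal muscle myosin that is also made in the developing heart. It had 4817, 8350, 9096, 8217, 10082, 5836 and 8273 signal units after aldosterone, against 2817, 7015, 7319, 6979, 7533, 3953 and 6349 in control and 6184 without injection. The aldosterone array was the higher one of the pair at all 7 times, but the arms overlapped, because both arms were low at 0.5 and 5 h.

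The difference between the arms for Myl1 was 0.73 at 0.5 h and 0.20 to 0.48 at the later times, with an SD of 0.19 over the 7 times. The limma estimate of 0.38 had a 95% interval of 0.20 to 0.57 and ranked 4 of 22256 by p, yet its adjusted p was 0.975. No probe set passed this test (0 of 22256, 0%), and 990 had an unadjusted p under 0.05, among them 2 of the 9 described here. With the signs of its differences flipped in all ways (exact test, two-sided), Myl1 had p = 0.0156, the smallest that 7 pairs allow. This test called no probe set (0 of 22256, 0%, with 1024 at an unadjusted p under 0.05). In all, 208 tested probe sets (0.935%) were higher with aldosterone at all 7 times and 143 (0.643%) lower. Only these can reach the smallest p. They are too few for that p to pass adjustment over 22256 probe sets, so this test could not have called Myl1. The limma estimate was 0.39 ± 0.14 at 0.5 to 2 h, 0.39 ± 0.14 at 3 to 5 h, and 0.41 ± 0.09 over the times other than 1 h. Without the 0.5 h pair the estimate of the early window was 0.22 ± 0.13 (limma, adjusted p = 0.447).

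Myl1 was the only one of these genes called for time. Its mean over both arms was 11.93 at 0.5 h and 12.24 at 5 h, against 12.83 to 13.04 at the other 5 times. The range was 2.17-fold. With the mean difference between the arms taken out, the SD within a time was 0.13. With that difference left in, the 2 arrays of a time lay 0.10 to 0.37 to either side of their mean. The steps from 0.5 to 5 h and from 5 h to the rest were larger than the SD of 0.13, and the steps among the other 5 times were not. The limma time effect had an adjusted p of 0.0141, in a test that called 430 of 22256 probe sets (1.93%) and 1 of these 9. An unadjusted p under 0.05 was reached by 4196 probe sets, among them 6 of these 9. The call was lost without the 0.5 h pair (adjusted p = 0.112) and kept without the 1 h pair (adjusted p = 0.0198). In these fits 94 and 351 of all probe sets passed. Without the aldosterone 4 h array Nppb was called as well (adjusted p = 0.011), against adjusted p = 0.0618 with it. Within scan day 1 the level was 0.77 higher at 3 h than at 0.5 h with aldosterone and 1.24 higher in control, and within day 3 it was 0.63 and 0.88 lower at 5 h than at 2 h.

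Atrial content moved with Myl1. Over 15 arrays its level correlated with the mean atrial marker level (Pearson's r = 0.74, permutation p = 0.00145, Spearman's rho = 0.62, permutation p = 0.0161, adjusted over 45 pairs of probe set and measure 0.0326 and 0.241), and only the Pearson coefficient passed after adjustment. Without the 2 arrays farthest from the median atrial level, control 0.5 h and aldosterone 5 h, r was 0.56, and with scan-day means removed it was 0.68. With the atrial level as a covariate, the limma time effect of Myl1 no longer passed (adjusted p = 0.153), while the difference between the arms was 0.36 ± 0.09. The atrial level itself was higher with aldosterone at 4 of 7 times, by 0.12 on average (SD 0.56). Skeletal muscle markers were dim: 14 of 20 lay below the filter, and the list averaged 9.45 to 9.69 on aldosterone arrays, 9.28 to 9.67 on control arrays and 9.27 on the uninjected array. Its brightest genes, Ckm and Casq1, averaged signals of 177678 and 1908, and the fast heavy chain genes Myh4 and Myh1 218 and 124. The summed signal of the list was 147613 to 234121 with aldosterone and 132185 to 220828 in control. Ckm, at 121969 to 222856 over the 15 arrays, made up most of that sum, which therefore says little about the other genes of the list. The correlation of Myl1 with the mean level of the list had r = 0.40 (permutation p = 0.142, rho = 0.25, permutation p = 0.369).

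**Figure D2:**
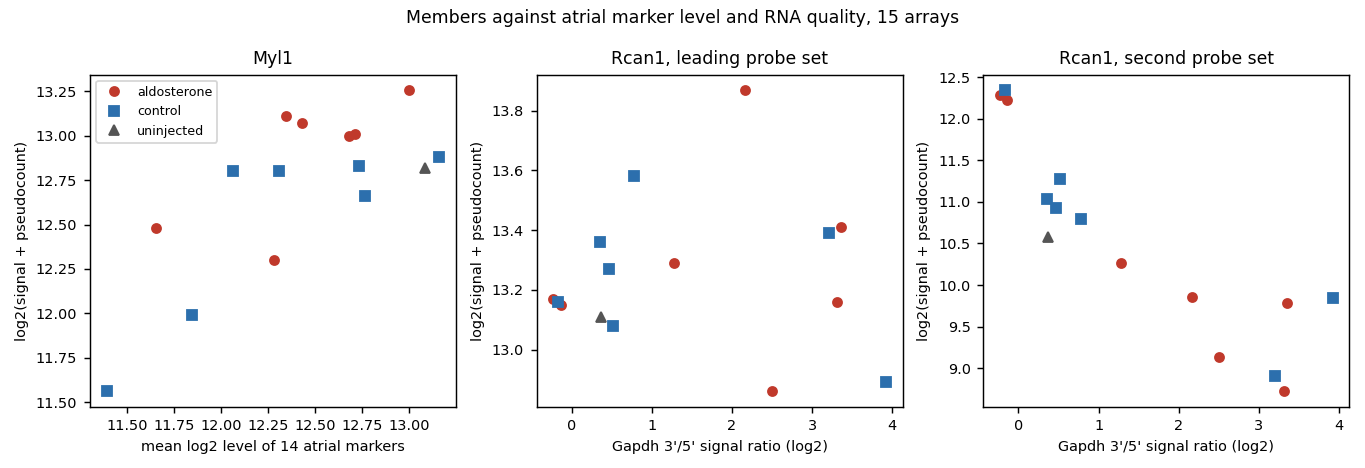
Left, level of Myl1 against the mean level of 14 atrial markers; middle and right, level of the leading and second Rcan1 probe sets against the log2 ratio of 3′ to 5′ Gapdh signal. Each point is 1 of 15 arrays, red circles aldosterone, blue squares control, grey triangle uninjected. Myl1 is higher where atrial markers are higher (r = 0.74), the second Rcan1 probe set is lower where the Gapdh ratio is higher (r = -0.88), and the leading one shows no such relation (r = -0.02).

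Ankrd1, on chromosome 19 (36111965 to 36119844), encodes the cardiac ankyrin repeat protein, which binds titin and enters the nucleus on stretch. Its leading probe set had 80581, 89866, 75964, 52245, 91093, 64833 and 79239 signal units after aldosterone, against 59081, 86671, 59847, 48727, 72762, 60307 and 76797 in control and 57536 without injection. It was lowest at 3 h in both arms, with a time mean of 15.70 there and 16.37 at 1 h, a 1.60-fold range. The time effect had a limma adjusted p of 0.0669 and did not pass. Without the 2 h pair it passed (adjusted p = 0.0429), but 915 of all probe sets then passed, against 430 with every pair.

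Between the arms, the leading Ankrd1 probe set had a limma estimate of 0.15 ± 0.06 (95% interval 0.02 to 0.28, adjusted p = 0.975, higher with aldosterone at 5 of 7 times) and the second one of 0.11 ± 0.10 (adjusted p = 0.975, 4 of 7). The levels of the 2 probe sets had a Pearson coefficient of 0.77 over the 15 arrays. They parted most at 5 h, where the second one was 0.41 lower with aldosterone and the leading one 0.01 lower.

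Csrp3, on chromosome 7 (48830398 to 48848051), encodes muscle LIM protein of the Z disc, and its time means had the smallest range among these genes. Its signal had a lowest value of 95694, a median of 133230 and a highest value of 160583 over the 7 aldosterone arrays, against 121774, 129196 and 149670 over the 7 control arrays, with 117317 in the uninjected heart. The arms overlapped almost fully, and the limma estimate of their difference was 0.00 ± 0.06 (95% interval -0.13 to 0.13, adjusted p = 1, higher with aldosterone at 2 of 7 times). Its time means spanned 1.25-fold.

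Rcan1, on chromosome 16 (92391951 to 92466169), encodes regulator of calcineurin 1, whose transcription calcineurin itself induces through NFAT factors. The leading probe set had 8757, 9263, 11395, 8656, 15756, 10620 and 7439 signal units after aldosterone, against 8170, 12054, 10354, 8425, 11181, 9772 and 7510 in control and 7480 without injection. Both 12 h arrays were the lowest of the 15 after normalization, at 12.86 and 12.89, and the aldosterone 4 h array was the highest. The 12 h level was 0.45 ± 0.16 below that of 0.5 to 5 h, with a limma adjusted p of 0.444. That comparison called 14 of 22256 probe sets (0.0629%) and none of these 9, of which 1, this probe set, had an unadjusted p under 0.05.

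The second Rcan1 probe set followed another course. It had 4766, 232, 639, 4618, 678, 925 and 381 signal units after aldosterone, against 4732, 1605, 1977, 2326, 273, 1781 and 742 in control and 1560 without injection. Its limma time effect (F 7.61, adjusted p = 0.0595) did not pass. It passed without the 1 h pair (adjusted p = 0.0332) and without the 2 h pair (adjusted p = 0.0299), where 351 and 915 of all probe sets passed. With the scan day as a block the limma adjusted p was 0.965. The levels of the 2 Rcan1 probe sets had a Pearson coefficient of -0.07 over the 15 arrays. Whether they report different transcripts of the gene was not tested.

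The measure of RNA quality moved with the second Rcan1 probe set, and this was the pair with the coefficient farthest from 0 among the 45. Its level correlated with the Gapdh ratio at r = -0.88 (permutation p = 2e-05, the smallest among the 45, adjusted 0.0009 over 45 pairs) and rho = -0.90 (permutation p = 2e-05, adjusted 0.0009). The relation had r = -0.96 without the control 12 h and aldosterone 2 h arrays, which were farthest from the median ratio, and r = -0.74 with scan-day means removed. In the window from 0.5 to 2 h its estimate was -1.14 ± 0.38 (limma, unadjusted p = 0.014, adjusted 0.427), and with the Gapdh ratio as a covariate 0.01. Its later window minus its earlier one was 1.54 ± 0.54 (unadjusted p = 0.0171, adjusted 0.737), and 0.21 with that covariate. The leading probe set had no such relation to the ratio (r = -0.02, permutation p = 0.951, rho = 0.09, permutation p = 0.763).

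In the windows of the aldosterone effect, no probe set of these genes passed. At 0.5 to 2 h limma called 0 of 22256 probe sets (0%), with 2283 at an unadjusted p under 0.05, among them Myl1 and the second Rcan1 probe set. The early estimates moved with the Gapdh ratio as a covariate, which cannot be fully told apart from the arm in this window. For Myh7 the change was from -0.01 to 0.68 ± 0.40 and for Acta1 from -0.04 to 0.56 ± 0.33. Myl1 went from 0.39 to 0.60 ± 0.18. Ankrd1 went from 0.18 to 0.38 ± 0.12 (leading) and from 0.03 to 0.54 ± 0.14 (second). Nppb went from 0.18 to 0.34 ± 0.33 and Csrp3 from 0.09 to 0.01 ± 0.13. The leading Rcan1 probe set went from -0.12 to 0.03 ± 0.19. None passed. At 3 to 5 h limma called 0 (0%), with 734 unadjusted, among them Myl1. The difference between the windows called 0 (0%), with 1496 unadjusted, and the second Rcan1 probe set was the only one of the 9 among these.

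The 4 h pair stood out across the genes. All 9 probe sets were higher with aldosterone at 4 h, with a median difference of 0.51, while the median over all tested probe sets was -0.01 and 48.9% were higher. Nppb, Myh7 and Acta1 were more than 2-fold higher with aldosterone (2.32-, 2.68- and 2.69-fold), against 502 of 22256 probe sets (2.26%). In the other pairs the medians over the 9 probe sets were 0.29 at 0.5 h, -0.11 at 1 h, 0.04 at 2 h, 0.15 at 3 h, -0.17 at 5 h and 0.01 at 12 h. The number higher with aldosterone was 7 of 9 at 0.5 h, 1 at 1 h, 5 at 2 h, 7 at 3 h, 2 at 5 h and 5 at 12 h. With 1 array per arm and time, a single pair has no test.

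The aldosterone 4 h array was the highest of the 15 for Myh7, Acta1, Myl1 and the leading Rcan1 probe set, by margins of 1.13, 0.72, 0.15 and 0.29 over the next. Of all tested probe sets, 4.95% were highest on it. It shared scan day, chip lot and station with its control. Its atrial level was 13.00 against 12.73 in that control, and its skeletal muscle level 9.69 against 9.47. The mean of the ventricular markers was 15.77 against 15.75 and the Gapdh ratio 2.17 against 3.21. The part of these in the 4 h difference was not tested.

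**Figure D3:**
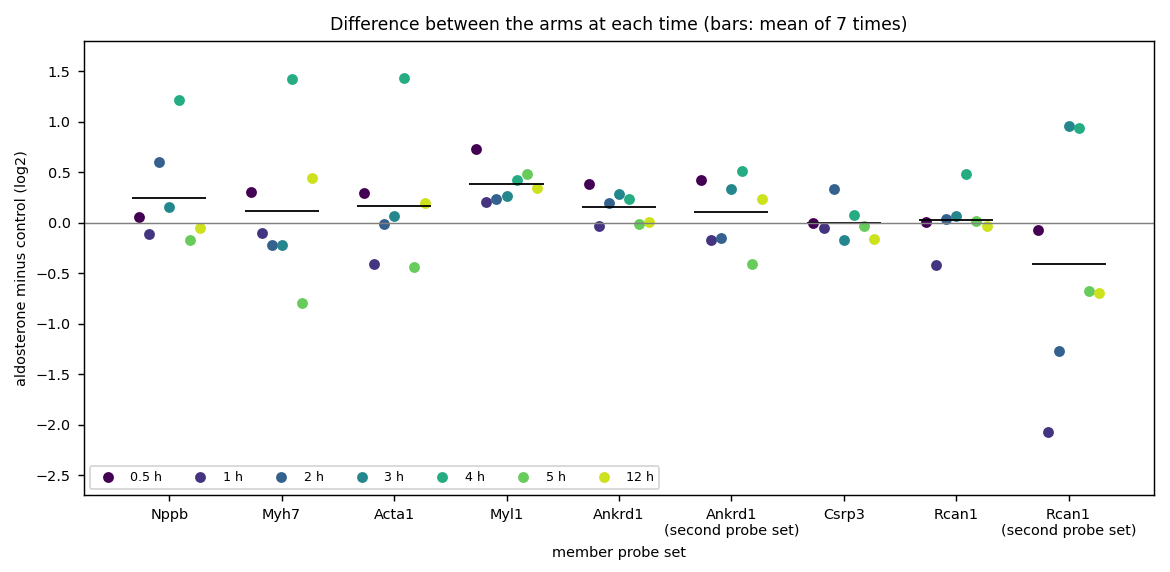
Difference in level, aldosterone minus control on the log2 scale, for each probe set at each of the 7 times (points, coloured by time) with the mean over the times (bars). Nppb, Myh7 and Acta1 have their highest point at 4 h, with values of 1.21 to 1.43, while all 7 points of Myl1 lie above 0.

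Over the 15 arrays, the level of Nppb had a Pearson coefficient of 0.74 with the second and 0.66 with the leading Ankrd1 probe set, and that of Acta1 0.70 and 0.54. These stayed between 0.53 and 0.71 without the aldosterone 4 h array. Nppb and Acta1 had 0.40 with each other, and 0.29 without that array. Myh7 had 0.67 with Acta1 and 0.64 with Rcan1, and 0.17 and 0.20 without that array. Myl1 had 0.03 with Nppb, -0.09 with Acta1 and 0.00 and 0.10 with Ankrd1. The arrays share times, scan days and arms, so these coefficients are a description. Myh7 also had r = 0.59 with the skeletal muscle list (permutation p = 0.0169, adjusted 0.19, rho = 0.59, permutation p = 0.022, adjusted 0.247), and Csrp3 r = 0.63 with the Gapdh ratio (permutation p = 0.00978, adjusted 0.147, rho = 0.70, permutation p = 0.00509, adjusted 0.115), neither of which passed over the 45 pairs.

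**Figure D4:**
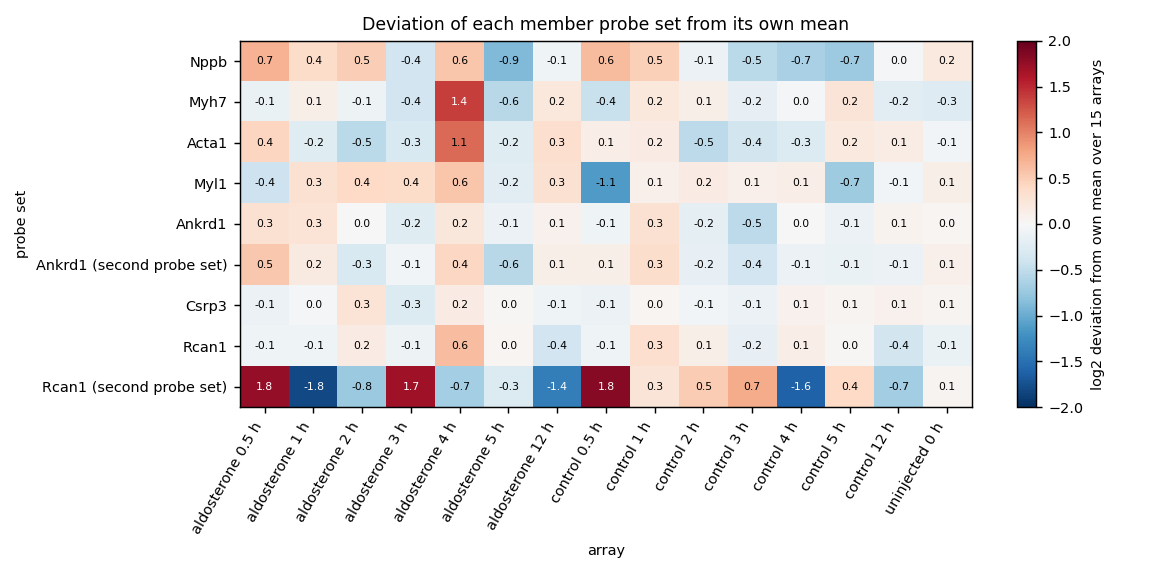
Deviation of each probe set from its own mean over 15 arrays, on the log2 scale, with aldosterone arrays left, control arrays next and the uninjected array last. On the aldosterone 4 h array 8 of 9 probe sets lie above their own mean, with a median of 0.55, and the second Rcan1 probe set swings most.

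The genes whose course over the 15 arrays was most like each of these were sought among 11559 genes, by Pearson coefficient. They were Prkab2, Ttc28 and Rgs10 for Nppb (0.87, 0.85 and 0.81), Jpt1, Med23 and Aebp1 for Myh7 (0.76, 0.76 and 0.75), and Mrpl57, Emc10 and Trnau1ap for Acta1 (0.80, 0.80 and 0.78). Myl1 had Timm8a1, Smpd3 and Foxc2 (0.85, 0.83 and 0.82), and Ankrd1 had Rchy1, Snx24 and Pf4 (0.83, 0.83 and 0.82). Csrp3 had Enpp4, Dennd4c and Samd4 (0.90, 0.89 and 0.87), and Rcan1 had Clasp1, Faf2 and Myoz1 (0.80, 0.79 and 0.73). Each is among the highest of 11559 coefficients and is a description only.

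The surrounding pathways were described by 8 lists, with 136 distinct genes tested. None of their genes was called for the aldosterone effect over 7 times, and list medians of the effect ran from -0.02 to 0.10, against 0.01 and 51.6% above 0 over all tested probe sets. Of the 23 tested fetal program and hypertrophy genes, 16 were above 0, with Lmcd1, a LIM protein that acts with calcineurin, at 0.24 (higher at 6 of 7 times) and Postn, a matrix protein of fibroblasts, at 0.31 (6 of 7). Of 25 targets of SRF, MRTF and YAP, 11 were above 0, with Amotl2 at 0.24 and Amotl1 at -0.22. Of 30 genes of the Z disc and stretch sensing, 13 were above 0, with Itgb1, an integrin chain, at -0.20. Of 19 calcineurin and NFAT genes, 8 were above 0, with the catalytic subunit gene Ppp3cc at -0.31 and Nfat5 at 0.32. Of 7 genes of natriuretic peptide processing and reception 4 were above 0, with the receptor gene Npr2 at 0.16 and the protease gene Corin at -0.10.

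For the time effect, limma called 4 of 16 integrated stress response genes, 2 of 25 SRF, MRTF and YAP targets, 1 of 19 calcineurin and NFAT genes and 1 of 12 p53 targets, against 1.93% of all probe sets. It called none of 23 fetal program genes, 30 Z disc genes, 7 natriuretic peptide genes and 21 sarcomere paralogs. The lists were chosen with earlier results of these data known, and both arrays of a time came from 1 scan day. These shares are therefore a description and not a test of the lists. The stress response genes were Ddit4, an inhibitor of the mTOR pathway (adjusted p = 0.0062, time means 12.72 at 5 h and 14.53 at 1 h), Herpud1, of protein quality control in the endoplasmic reticulum (adjusted p = 0.0101, 13.70 at 1 h and 14.82 at 4 h), the transcription factor gene Cebpb (adjusted p = 0.0227, 12.95 at 0.5 h and 14.35 at 2 h) and the serine synthesis gene Phgdh (adjusted p = 0.0388, 9.37 at 5 h and 11.76 at 2 h). Herpud1 also passed the trend, rising by 0.24 ± 0.04 per hour (adjusted p = 0.0151), the 1 list gene that did. Without the 1 h pair these 4 genes still passed for time (adjusted p = 0.0183, adjusted p = 0.0332, adjusted p = 0.027 and adjusted p = 0.0431 in the same order), while the Herpud1 trend did not (0.22 per hour, adjusted p = 0.074).

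The other calls had their own courses. Egr1, an immediate early gene, peaked at 2 h with a time mean of 12.82 and was lowest, 11.10, at 12 h, 3.29-fold apart (limma, adjusted p = 0.0294). Ccn2, the matrix regulator CTGF and a YAP target, had time means of 12.48 at 0.5 h and 13.82 at 4 h, 2.52-fold apart (adjusted p = 0.0316). Cdkn1a, the p53 target that encodes the cell cycle inhibitor p21, was highest at 2 h (13.03) and lowest at 12 h (11.60, adjusted p = 0.0244). Dyrk1a, a kinase that opposes NFAT, was lowest at 2 h (11.31) and highest at 12 h (12.27, adjusted p = 0.0449). Without the 1 h pair, Dyrk1a no longer passed (adjusted p = 0.0557) and the other 3 did.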

How the data were processed

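Total RNA of whole hearts was hybridised as biotin-labelled cRNA to 15 Affymetrix mouse arrays. The submitters' processing notes name GCOS 1.2. The deposited values are linear signal intensity for every probe set, and their 2% trimmed mean was 1500 on each array, with medians of 413.8 to 741.4. The experiment files deposited with the arrays gave 3 scan days, 2 chip lots and the station, which carry no expression values. From the deposited intensity, log2(signal + 167.8) was computed (the 25th percentile of all signals was added, which understates folds of dim genes) and quantile normalized, since array medians differed 1.79-fold.

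Tested were 22256 probe sets with a mean signal of at least 526.7, the median, without 64 control probe sets. Gene symbols came from the platform annotation. Of 45101 probe sets, 34958 had 1 symbol, 932 several and 9211 none. Gene positions are those of RefSeq on GRCm38.p6.

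Moderated tests were those of limma 3.58.1 (R 4.3.3), allowing for a variance trend and Benjamini-Hochberg adjustment over all tested probe sets, at 0.05. The aldosterone effect had time as a block, over 7 times, and within the early (0.5 to 2 h) and later (3 to 5 h) times as windows. The time effect, the trend and 12 h against 0.5 to 5 h had treatment as a covariate. Correlations used 100000 permutations, with scipy 1.17.1. The fits were tested on simulated data.

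The genes and lists were chosen with earlier results of these data known. Named genes were all probe sets of the 8 genes, up to 4 called genes per pathway list by p (otherwise up to 2 by the smallest p), the 3 most similar genes, and the 2 brightest and the dimmest genes of a marker list. Alternatives were the scaling, pseudocounts of 16 and 500, other filters, each time left out (the 1 h pair also for the list counts, chosen after seeing the data), no variance trend, array weights, the Gapdh ratio, the scan day and the atrial level.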

Additional observations from a re-analysis of the deposited data

Results flagged for a closer look

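One value lay apart from its group. The level of Myh7 on the aldosterone 4 h array was 13.66, and the next highest of the 7 aldosterone arrays was 12.48. The gap made up 0.61 of the whole range of the group, above Dixon's 95% critical ratio for 7 values. Of 18 groups examined (9 probe sets in 2 arms) this was the only one, and chance alone gives about 1 in 20.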

How the results depend on the processing

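Under all alternatives run, none of the 9 probe sets passed for the aldosterone effect over 7 times, in either window, for the difference of the windows, in the sign-flip test or for 12 h. The sign-flip test adds little here, since the number of pairs limits its smallest p. The Myl1 estimate over 7 times stayed between 0.33 and 0.41 in 16 alternatives (unadjusted limma p 0.000298 to 0.00279, adjusted 0.841 to 1). The time effect, with 1 call (Myl1), had 2 calls with a pseudocount of 500, 3 with array weights, 0 without a variance trend (Myl1 adjusted p = 0.0989), 0 with the atrial level, 2 without the aldosterone 4 h array alone and 0 to 4 when a time was left out. The trend, with 0 calls, had 1 call, Nppb, with the stricter filter (adjusted p = 0.046), array weights (adjusted p = 0.0382), the Gapdh ratio (adjusted p = 0.0285) and without the aldosterone 4 h array alone (adjusted p = 0.00606), and 0 to 1 when a time was left out (adjusted p = 0.0275 without 4 h). The range of the adjusted p of the Nppb trend over 17 alternatives was 0.00606 to 0.409. The alternative without that array, and the atrial level in the aldosterone comparisons, were chosen after seeing the data. Calls over all probe sets ranged from 39 to 915 for the time effect (430 as reported), 1 to 103 for the trend (34), 1 to 33 for 12 h (14), 0 to 227 for 0.5 to 2 h (0) and 0 to 33 for the difference of the windows (0). For those that moved, the cause was not tested. The arms were paired by time in the aldosterone fits and the sign-flip test. The labels number no replicates, so no further block was fitted.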
